A study of Mus musculus with 20 samples.

Results

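The age comparison described here was made within Sod2 conditional knockout (cKO) skin, at 300 days against 100 days. It drew on 6 of the 20 samples of the study, the 3 labelled as conditional knockout at 300 days and the 3 at 100 days, chosen by their source names. All came from C57BL/6 mice, an inbred laboratory strain, and all 6 are labelled Sod2-/-, so that both sides of the comparison carry this label. RNA of total skin was sequenced after removal of ribosomal RNA. The cell type or promoter that restricts the deletion is not given in the labels. Context came from wild-type (Sod2+/+) control skin from 5 samples at 50 days, 2 at 100 days, 3 at 300 days and 4 at 700 days. The deposited table holds 1 value per gene and group, in FPKM (fragments counted per length of gene model and per mapped fragments). No spread between the mice of a group can be read from it, and no value below has an error or a test. Read depth is unknown. A log2 ratio below is always log2 of (FPKM + 1) at 300 days minus that at 100 days, and genes with a ratio of at least 1, or of -1 or below, were counted.

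The groups differed in sex-linked transcripts. The 4 measured genes of the Y chromosome (Uty, Kdm5d, Ddx3y and Eif2s3y) summed to 107 FPKM at 100 days and 101 FPKM at 300 days in the cKO and to 112 FPKM in the 700-day controls, but to 0.743, 0.154 and 0.106 FPKM in the controls of 50, 100 and 300 days. A row shared by Xist, the RNA that silences an X chromosome in females, was 4.92 and 17.2 FPKM in the cKO, 3.69 FPKM at 700 days and 1141 to 2580 FPKM in the younger controls. Both sides of the age comparison in cKO skin thus had the same pattern, as did both sides of the comparison of 100-day and 300-day controls. Wherever cKO and control skin of 100 or 300 days stand side by side below, genotype and this difference cannot be told apart.

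Sod2 encodes the superoxide dismutase of the mitochondrial matrix, which turns superoxide from the respiratory chain into hydrogen peroxide. Skin is a layered organ. Its epidermis renews itself from basal keratinocytes, its dermis is built by fibroblasts that secrete collagen, and its hair follicles cycle through growth (anagen), regression and rest, with pigment cells active only during growth. Injured or inflamed epidermis switches on a set of alarm genes, among them keratins 6 and 16, stefins, defensins and interleukins of the IL-1 family. Skin also includes a thin sheet of striated muscle, fat, vessels, nerves and resident immune cells, and a value for whole skin sums over all of them. In such bulk samples fewer cells of a type and less RNA per cell cannot be told apart. In the 700-day controls the tested genes of epidermal differentiation summed to 17428 FPKM and those of skeletal muscle to 158 FPKM. In the 50-day controls these sums were 14004.5 and 4614 FPKM, and in the 300-day cKO they were 5662 and 22844 FPKM. The remaining groups had 3876 to 4143 FPKM for epidermal differentiation and 15154 to 23336 FPKM for skeletal muscle. The part of these differences in the values of the 50-day and 700-day controls given below was not tested.

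Among 12111 genes, 288 were higher at 300 days (2.38%) and 172 were lower (1.42%), and the median log2 ratio over all genes was 0.02. Together they made up 3.8% of the genes. The genes higher at 300 days included alarm genes of the epidermis, inflammatory genes of myeloid cells, interferon response genes, type I collagen, several matrix proteinases and some skeletal muscle genes. Genes lower at 300 days included the keratins of the inner root sheath of the hair follicle, pigment enzymes, mast cell proteases, some myelin genes and 3 muscle genes. Group values at both ages correlated at r = 0.96 across genes on the log2 scale, as a description of 12111 points that share their libraries.

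**Figure D1:**
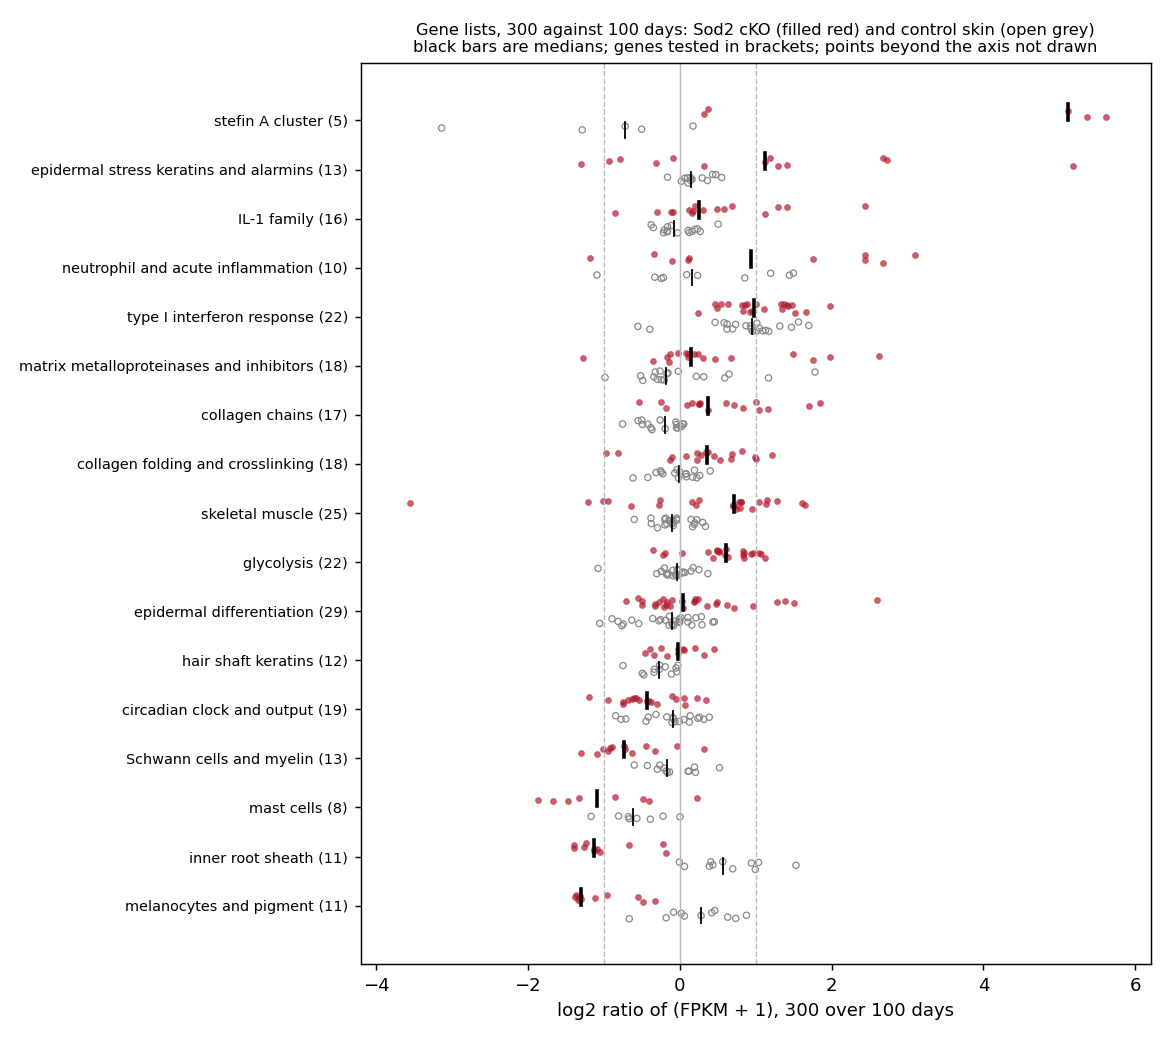
Log2 ratio of (FPKM + 1) at 300 over 100 days for the tested genes of 17 lists, in Sod2 cKO skin (filled red points) and in control skin (open grey points), with medians as black bars and the size counted as dashed lines. Inner root sheath and pigment genes lie to the left in cKO skin and mostly to the right in control skin, while the interferon list lies to the right in both; 1 control point, that of Ttn, which is listed at 0 at 300 days, falls outside the axis.

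The deleted gene itself hardly differed between the ages. Sod2 stood at 17.6 FPKM at 100 days and 16.8 FPKM at 300 days (log2 ratio -0.06), against 27.7 and 23.5 FPKM in control skin of the same ages. Both cKO values lay below both of these control values, and above the 12.7 and 11.5 FPKM of the 50-day and 700-day controls. Whole-gene values of skin thus do not show the deletion by themselves. Among 28 tested genes of superoxide, thiol and glutathione defence none was counted (median -0.12). The lowest ratio among them was that of Gss, the last enzyme of glutathione synthesis, at 10.7 and 5.59 FPKM (-0.82).

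Junb, the AP-1 subunit of the series title, was 33.9 FPKM at 100 days and 26.2 FPKM at 300 days (log2 ratio -0.36). In controls of these ages it was 20.1 and 24.5 FPKM, so that the cKO value was the higher of the pair at each age and the gap was wider at 100 days. Of 10 tested AP-1 subunits, 2 were higher and none was lower. Fos was 6.76 FPKM at 100 days and 18.0 FPKM at 300 days (1.30), and Fosb was 0.397 and 2.35 FPKM (1.26). In control skin the order was opposite, with Fos at 21.8 FPKM at 100 days and 6.43 FPKM at 300 days. Fos and Fosb also respond to tissue handling, and in the list of immediate early and heat shock genes 3 of 20 were higher and none lower (median 0.04). These were the nuclear receptor Nr4a2 at 1.22 and 5.21 FPKM, the phosphatase Dusp1 at 9.81 and 22.9 FPKM and the chaperone Hsph1 at 22.3 and 49.8 FPKM. Their part in the Fos result was not tested. The annotated span of Junb on chromosome 8 (84974484 to 84978718, GRCm38) overlaps that of Prdx2.

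The highest ratios of the comparison belonged to the epidermal alarm response. Stefin A genes encode small inhibitors of cathepsins that are clustered on mouse chromosome 16. BC100530, a member of the cluster, was 1.71 FPKM at 100 days and 132 FPKM at 300 days (log2 ratio 5.62), the highest ratio among genes measured above 0 at both ages with at least 5 FPKM at one of them. Stfa3 was 0.202 and 48.7 FPKM (5.37). Stfa1 was listed at 0 at 100 days and at 33.8 FPKM at 300 days, so no fold is given. Of 9 listed stefins 5 passed the filter on low values and 3 of those were higher, while Stfa2 and Csta1 had ratios of 0.33 and 0.37. In control skin Stfa3 was 7.78 FPKM at 100 days and listed at 0 at 300 days, and BC100530 was 4.86 and 1.41 FPKM. The 700-day controls had the second highest values, at 86.7 FPKM for BC100530, 22.8 FPKM for Stfa3 and 17.2 FPKM for Stfa1. The genes of this cluster have near-identical copies, and how shared reads were split among them is uncertain. In GRCm38 BC100530 lies on chromosome 16 from 36359382 to 36367748, Stfa1 from 36276951 to 36285373 and Stfa3 from 36450537 to 36455392.

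Of the 5 tested keratins of stressed epidermis 3 were higher. Krt6b was 0.347 FPKM at 100 days and 47.9 FPKM at 300 days (log2 ratio 5.18), its relative Krt6a was 43.1 and 99.8 FPKM (1.19), and their partner Krt16 was 8.81 and 61.8 FPKM (2.68). None of these 3 differed by the size counted between control skin of 100 and 300 days, where Krt16 was 3.84 and 5.24 FPKM. Krt17, the keratin of this list with the highest level, was 353 and 442 FPKM (0.32), and Krt75, a keratin of the hair companion layer, was 102 and 58.6 FPKM (-0.79). Klk6, a secreted protease of the kallikrein family, was 6.57 and 49.1 FPKM (2.73). Of 13 tested genes of the epidermal stress list 7 were higher and 1 was lower (median 1.12). The one lower gene was Sprr1a, a cornified envelope protein induced by stress, at 118 FPKM at 100 days and 47.4 FPKM at 300 days (-1.29). Its relatives Sprr2h and Sprr1b had ratios of -0.93 and -0.09. Krt6a and Krt6b have near-identical sequences, and the division of reads between them is uncertain.

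Defb8, which encodes a beta-defensin, an antimicrobial peptide, was 18.6 FPKM at 100 days and 373 FPKM at 300 days (log2 ratio 4.26). It was listed at 0 in control skin of both ages, at 0.139 FPKM at 50 days and at 76.1 FPKM at 700 days. Both cKO groups and the oldest controls stood apart from the 3 younger control groups, the same division as for the Y-linked genes. Gsdmc, of the pore-forming gasdermin family, was 0.0391 FPKM at 100 days and 5.09 FPKM at 300 days (2.55).

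**Figure D2:**
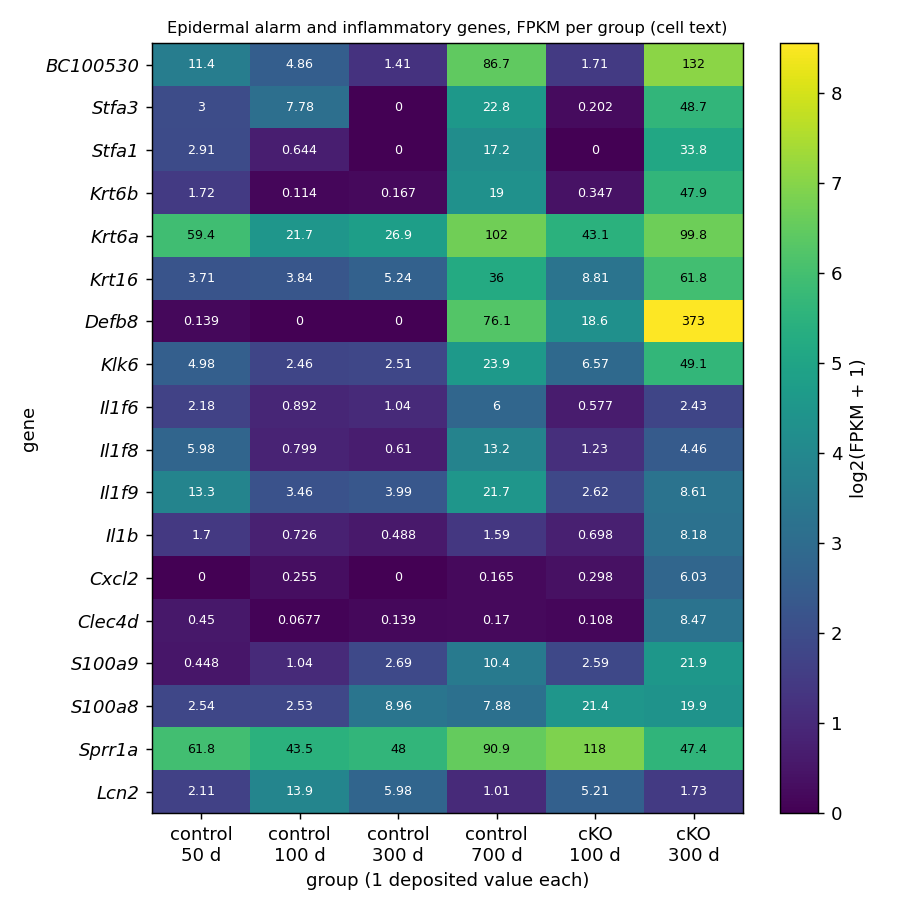
FPKM of epidermal alarm and inflammatory genes (rows) in the 6 groups (columns), with the value printed in each cell and log2(FPKM + 1) as colour. The cKO skin at 300 days has the highest value of the 6 groups for BC100530, Stfa3, Krt6b, Krt16, Defb8, Klk6, Il1b, Cxcl2, Clec4d and S100a9, whereas Sprr1a is highest in the cKO at 100 days.

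Cytokines of the IL-1 family were part of this pattern. Of 16 tested family members and receptors 4 were higher and none lower (median 0.25). Il1b, the main secreted form from myeloid cells, was 0.698 FPKM at 100 days and 8.18 FPKM at 300 days (log2 ratio 2.44). The epidermal cytokines of the IL-36 group, listed under their former names Il1f6, Il1f8 and Il1f9, were 0.577 and 2.43, 1.23 and 4.46, and 2.62 and 8.61 FPKM. These IL-36 genes are also in the epidermal stress list, and Il1b is also in the neutrophil list below. The counts of these lists therefore overlap. The receptor antagonist Il1rn was 17.5 and 28.9 FPKM (0.69), and Il1a was 2.47 and 3.3 FPKM (0.31). For the IL-36 genes the 700-day controls were higher still, with Il1f9 at 21.7 FPKM, whereas Il1b was at most 1.7 FPKM in the control groups. The 50-day controls were also above the 300-day cKO for Il1f9, at 13.3 FPKM, and Il1f8, at 5.98 FPKM. Il1f6 was 2.18 FPKM there, just below it.

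Several genes of neutrophils and activated monocytes were higher at 300 days, all from low levels. Clec4d, a C-type lectin receptor of myeloid cells, was 0.108 FPKM at 100 days and 8.47 FPKM at 300 days (log2 ratio 3.09). The neutrophil chemokine Cxcl2 was 0.298 and 6.03 FPKM (2.44), the proteinase Mmp9 was 1.0 and 5.77 FPKM (1.76), and S100a9, a subunit of calprotectin, was 2.59 and 21.9 FPKM (2.67). Its partner S100a8 did not share the difference, at 21.4 and 19.9 FPKM. Lcn2, an iron-trapping protein of neutrophils and keratinocytes, was lower at 300 days, at 5.21 and 1.73 FPKM (-1.18). In all, 5 of 10 tested genes of this list were higher and 1 was lower. The other 10 of the 20 listed genes fell below the filter, among them the neutrophil genes Ngp, Camp, Csf3r, Cxcr2 and Retnlg. Of the 10 that passed, 2 averaged under 1 FPKM over the other 5 groups and passed through their highest group alone. These were Clec4d and Cxcl2, both admitted through the 300-day cKO group and both among the 5 counted higher. The count of higher genes thus rests partly on the filter. Slfn4, an interferon-inducible gene of myeloid cells, was 0.522 and 9.26 FPKM (2.75), and in control skin it was 0.404 and 4.61 FPKM. Resident macrophage markers differed less. Of 19 tested macrophage and monocyte genes 1 was higher, the Fc receptor Fcgr1, and 1 was lower, Lyz1 (median 0.24). In control skin 8 of the 19 were higher and none was lower (median 0.96).

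Type I interferons act through a receptor that activates a transcription factor complex, which binds a DNA motif called the interferon-stimulated response element in the promoters of antiviral genes. Of 22 tested genes of the interferon list, 11 were higher at 300 days and none was lower, with all 22 ratios above 0 (median 0.98). Ifit1, which binds foreign RNA, was 1.01 FPKM at 100 days and 6.93 FPKM at 300 days (log2 ratio 1.98). The ubiquitin-like modifier Isg15 was 2.23 and 9.2 FPKM (1.66), and Usp18, the enzyme that removes it, was 3.39 and 11.2 FPKM (1.48). Ifi44 was 0.634 and 3.66 FPKM, Oasl2 2.61 and 8.65 FPKM and the nucleic acid sensor Zbp1 1.99 and 7.0 FPKM. Among the 22, 3 averaged under 1 FPKM over the groups other than their highest. Control skin had the same direction. In control skin 10 of the 22 were higher at 300 days and none was lower (median 0.95), where the share over all genes was 3.35% higher and 1.01% lower. Isg15 was 3.3 and 13.0 FPKM there (1.70). The list was thus higher at the later age in both genotypes, which come from separate samples.

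The upstream sequence is shown for the 3 counted interferon genes with the highest ratios among those holding the core of the response element, GAAA followed after any 2 bases by another GAAA, within 250 bases before the RefSeq start (GRCm38.p6, strand of the gene, 5′ to 3′). Capitals mark each match on either strand.
Ifit1 (chr19:34640639-34640888, plus strand): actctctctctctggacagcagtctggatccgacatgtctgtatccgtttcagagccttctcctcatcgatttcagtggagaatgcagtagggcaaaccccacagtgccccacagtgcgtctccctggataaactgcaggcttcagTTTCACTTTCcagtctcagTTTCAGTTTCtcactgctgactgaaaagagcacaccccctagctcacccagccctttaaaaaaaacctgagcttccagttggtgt
Isg15 (chr4:156200819-156201068, minus strand): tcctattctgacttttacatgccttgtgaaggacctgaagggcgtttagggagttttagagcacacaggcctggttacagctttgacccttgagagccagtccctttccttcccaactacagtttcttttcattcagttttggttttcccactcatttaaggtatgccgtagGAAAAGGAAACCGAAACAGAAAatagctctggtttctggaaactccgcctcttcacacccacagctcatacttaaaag
Oas3 (chr5:120777660-120777909, minus strand): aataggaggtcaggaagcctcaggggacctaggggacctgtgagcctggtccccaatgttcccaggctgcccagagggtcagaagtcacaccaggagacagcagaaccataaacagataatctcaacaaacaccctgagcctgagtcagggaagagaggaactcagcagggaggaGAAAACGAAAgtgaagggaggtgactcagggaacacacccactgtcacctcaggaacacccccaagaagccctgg
The matches lie between 104 and 76 bases before the start in Ifit1, where 2 matches read on the opposite strand, between 78 and 57 bases in Isg15, where 3 overlap, and between 75 and 66 bases in Oas3. Of 17 tested interferon genes with a promoter entry 9 held this core on either strand (52.9%), as did 6 of the 8 counted ones, where a gene with several starts was taken to hold it if any window did. Over all 27025 genes with an entry, taken in the same way, the share was 3.46%, and it was 2.98% of the 32851 single windows. A match is a description of the letters and does not show that a factor binds there.

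In the dermis, type I collagen stood out. Col1a1 and Col1a2 encode the chains of the main fibrillar collagen of skin. Col1a1 was 151 FPKM at 100 days and 544 FPKM at 300 days (log2 ratio 1.85), and Col1a2 was 166 and 545 FPKM (1.71). In control skin the values at the same ages were 173 and 170 FPKM for Col1a1 and 242 FPKM at both ages for Col1a2. The 300-day cKO value was the highest of the 6 groups for both chains, and the 700-day controls were the lowest. Of 17 tested collagen chains 5 were higher and none was lower (median 0.38). The other 3 were Col15a1, a collagen of basement membrane zones, at 29.2 and 66.8 FPKM (1.17), Col5a2, which sets fibril width, at 31.7 and 66.8 FPKM (1.05), and the microfibrillar chain Col6a3 at 18.9 and 38.8 FPKM. Unlike type I collagen, these 3 stood higher in control skin of both ages than in the 300-day cKO. The control values were 116 and 81.9 FPKM for Col15a1, 87.8 and 67.3 FPKM for Col5a2 and 70.6 and 58.9 FPKM for Col6a3. Basement membrane chains Col4a1 and Col4a2 did not follow, with ratios of -0.18 and -0.25. Col5a2 and Col6a3 stood below the size counted when values were rescaled to equal totals, at 0.97 and 0.93.

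Enzymes that fold and crosslink collagen were split. Of 18 tested, 2 were higher and none lower (median 0.36). The collagen chaperone Serpinh1 was 24.5 FPKM at 100 days and 50.3 FPKM at 300 days (log2 ratio 1.01, and 0.94 after rescaling to equal totals), and the prolyl 3-hydroxylase P3h1 was 4.41 and 11.6 FPKM (1.22). In control skin of these ages Serpinh1 was 74.6 and 63.0 FPKM and P3h1 was 15.2 and 9.58 FPKM. Lysyl oxidase (Lox), which starts crosslinking, and Plod2, which hydroxylates the lysines used in crosslinks, had ratios of opposite sign to collagen, at 16.6 and 9.0 FPKM (-0.82) and at 9.57 and 4.41 FPKM (-0.97). Among 29 tested genes for elastic fibres, proteoglycans and further matrix proteins 4 were higher and none lower (median 0.24). They were the collagen-binding proteoglycan Lum at 18.0 and 49.0 FPKM (1.40), the microfibril protein Mfap4 at 3.62 and 10.4 FPKM (1.30), tenascin-C (Tnc), a matrix protein of remodelling tissue, at 6.38 and 16.4 FPKM (1.23), and Sparc, which binds collagen, at 212 and 445 FPKM (1.06). Sparc fell below the size counted after rescaling to equal totals. In control skin Lum was 64.4 and 39.5 FPKM and Sparc 378 and 275 FPKM. Mfap4 was 8.05 and 8.07 FPKM and Tnc 9.54 and 7.87 FPKM there. Elastin (Eln) was 9.9 and 10.7 FPKM. None of 15 tested fibroblast markers was counted.

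Matrix metalloproteinases, which cut collagen and other matrix proteins, were higher beside collagen itself. Mmp13, the main collagenase of mice, was 0.28 FPKM at 100 days and 6.88 FPKM at 300 days (log2 ratio 2.62). Mmp3, a stromelysin, was 3.78 and 17.9 FPKM (1.98). Timp4, an inhibitor of metalloproteinases, was lower at 5.94 and 1.87 FPKM (-1.27). Of 18 tested members of this list 4 were higher and 1 lower (median 0.15), and the widely expressed Mmp2, Mmp14 and Timp2 had ratios between 0.08 and 0.24. Mmp12 and Mmp13 averaged under 1 FPKM over the groups other than their highest, and Mmp13 passed the filter through the 300-day cKO group alone. In control skin Mmp13 was 0.141 and 0.0159 FPKM and Mmp3 was 6.3 and 4.76 FPKM. Mmp13 at 300 days in the cKO was above each control group, the nearest being 1.44 FPKM at 700 days.

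AP-1 dimers bind the letters TGANTCA. The upstream sequences of Mmp13 and Mmp3, which hold these letters, are shown, with capitals at the match (GRCm38.p6, strand of the gene, 5′ to 3′).
Mmp13 (chr9:7272264-7272513, plus strand): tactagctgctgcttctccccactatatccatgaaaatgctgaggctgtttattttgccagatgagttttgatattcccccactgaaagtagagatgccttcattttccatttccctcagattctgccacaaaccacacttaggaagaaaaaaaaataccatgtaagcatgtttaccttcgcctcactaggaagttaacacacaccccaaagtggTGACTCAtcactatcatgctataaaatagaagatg
Mmp3 (chr9:7445572-7445821, plus strand): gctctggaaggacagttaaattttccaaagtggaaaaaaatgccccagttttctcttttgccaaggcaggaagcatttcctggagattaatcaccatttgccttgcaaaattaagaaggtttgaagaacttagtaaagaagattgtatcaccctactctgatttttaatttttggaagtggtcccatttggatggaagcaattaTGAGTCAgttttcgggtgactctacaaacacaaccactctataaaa
The match lies between 35 and 29 bases before the RefSeq start in Mmp13 and between 46 and 40 bases in Mmp3. Of 12 tested members of the proteinase list with a promoter entry 4 held the letters (33.3%). Beside Mmp13 and Mmp3 these were Mmp12 and Plaur, with ratios of 0.19 and -0.12, below the size counted. In the epidermal stress list 4 of 8 held the letters (50%). These were Il1f8, which was higher at 300 days, and Sprr1a, Sprr1b and Sprr2h, whose ratios were below 0, while the higher genes Klk6 and Il1f9 did not hold the letters. Over all genes with an entry the share was 7.82%, and over single windows 6.75%.

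**Figure D3:**
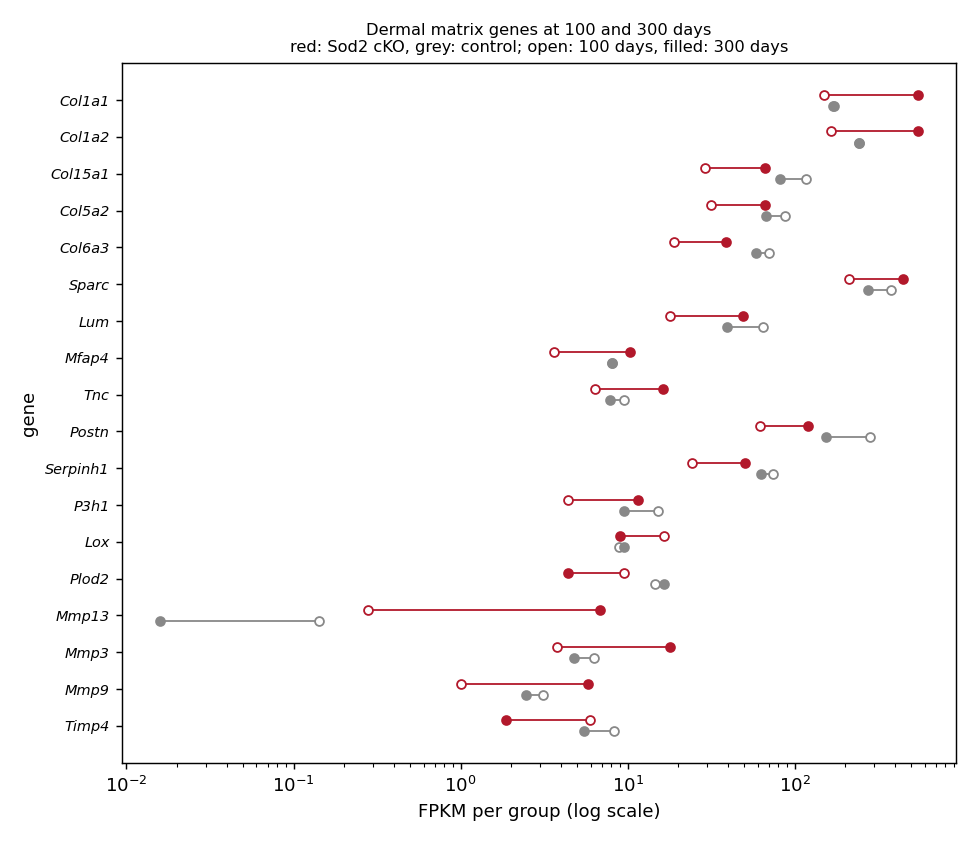
FPKM (log scale) of dermal matrix genes at 100 days (open) and 300 days (filled) in Sod2 cKO (red) and control skin (grey), 1 value per group. Collagen I, Lum, Tnc, Mmp13 and Mmp3 lie further right at 300 days in the cKO, while Lox, Plod2 and Timp4 lie further left.

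Growth factor genes of the skin differed in single members rather than as groups. Insulin-like growth factor 1 (Igf1), a signal from fibroblasts and fat to the epithelium, was 15.9 FPKM at 100 days and 11.0 FPKM at 300 days (log2 ratio -0.49), with a ratio of similar size (-0.55) from higher levels in control skin, 45.7 and 30.8 FPKM. Its binding protein Igfbp3, which holds IGF outside the cell, was 163 FPKM at 100 days and 36.3 FPKM at 300 days (-2.14). The 100-day cKO value of Igfbp3 was the highest of the 6 groups, and the 300-day value equalled that of the 300-day controls, also 36.3 FPKM. Igf2 was 3.19 and 0.908 FPKM (-1.13), and Igfbp2 was 6.55 and 14 FPKM (0.99). Of 16 tested IGF genes 2 were lower and none higher (median -0.11). In the TGF-beta list 1 of 16 was counted, the feedback inhibitor Smad7, lower at 24.2 and 9.36 FPKM (-1.28), while Smad4 was 76.2 and 50.1 FPKM (-0.60). Smad7 in control skin had a ratio of 0.95.

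Genes linked with cell cycle arrest did not share a direction. Cdkn2a, which encodes the inhibitors p16 and p19Arf, was 1.44 FPKM at 100 days and 3.45 FPKM at 300 days (log2 ratio 0.86), and in controls it was listed at 0 at 100 days, at 0.178 FPKM at 300 days and at 387 FPKM at 700 days. Cdkn1a, the p53-induced inhibitor p21, was 66.0 and 51.5 FPKM (-0.35). Of 14 tested senescence-related genes 4 were higher, among them Mmp13, Il1b and Mmp3, and Igfbp3 was lower, with a median of 0.01. Among 17 p53 targets 1 was higher, the cyclin Ccng1, at 55.9 and 114 FPKM (1.02, and 0.94 after rescaling to equal totals). Of 26 proliferation genes 1 was higher, the centromere protein Cenpf, at 8.66 and 18.5 FPKM (1.01, and 0.96 after that rescaling).

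Genes lower at 300 days included a group from the hair follicle. The inner root sheath is the layer that moulds the growing hair and is made only in anagen. In the inner root sheath list 8 of 11 tested members were lower, with no member higher (median -1.12). The keratin Krt71 was 1284 FPKM at 100 days and 589 FPKM at 300 days (log2 ratio -1.12), Krt25 872 and 365 FPKM (-1.25), Krt27 670 and 254 FPKM (-1.40) and Krt72 575 and 219 FPKM (-1.39). Padi3, which converts arginine in trichohyalin to citrulline, was 61.2 and 27.5 FPKM (-1.13). The direction was opposite in control skin, where Krt72 was 102 FPKM at 100 days and 297 FPKM at 300 days and the median of the list was 0.57 with 2 of 11 higher. The 100-day cKO value was the highest of the 6 groups for these keratins, and the 300-day cKO and control values lay nearer to each other, as for Krt71 at 589 and 556 FPKM.

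Hair shaft keratins did not share this difference. None of 12 tested was counted (median -0.02), and Krt31 and Krt33a were 179 and 184 FPKM and 273 and 284 FPKM. Of 30 tested keratin-associated proteins, which fill the cortex of the shaft, 1 was lower, Krtap4-6 at 11.1 and 4.56 FPKM (median -0.40). Among signals of the hair matrix and its surroundings 2 of 21 were lower and none higher (median -0.11). Fgf5, the signal that ends anagen, was 5.47 FPKM at 100 days and 1.04 FPKM at 300 days (log2 ratio -1.67), and Corin, a protease of the dermal papilla, was 4.66 and 1.37 FPKM (-1.25). The hair matrix regulators Hoxc13, Lef1 and Msx2 had ratios of 0.04, -0.11 and -0.21. None of 14 hair follicle stem cell genes was counted (median -0.02), and Lgr5 was 9.84 and 9.79 FPKM.

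Pigment genes were on the same side as the inner root sheath. Melanocytes of the hair bulb make melanin during anagen with the enzymes encoded by Tyr, Tyrp1 and Dct. Of 11 tested melanocyte genes 7 were lower, none was higher and all 11 had ratios below 0 (median -1.30). Tyrp1 was 83.7 FPKM at 100 days and 31.8 FPKM at 300 days (log2 ratio -1.37), Dct 58.3 and 21.9 FPKM (-1.38), Pmel, the scaffold of the pigment granule, 30.5 and 11.5 FPKM (-1.34) and Tyr 17.4 and 7.49 FPKM (-1.12). The lineage genes Mitf and Kit had smaller ratios of -0.55 and -0.49. In control skin none of the 11 was counted (median 0.28), with Tyrp1 at 40.5 and 41.2 FPKM. For Tyrp1 and Dct the 100-day cKO group was the highest of all, and the 300-day cKO group lay below both controls of these ages.

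Mast cells store proteases in granules. Of 8 tested mast cell genes 4 were lower and none was higher (median -1.09). They were the tryptase Tpsb2 at 9.74 and 1.94 FPKM (log2 ratio -1.87), the chymases Cma1 at 16.7 and 4.6 FPKM (-1.66) and Mcpt4 at 18.9 and 6.2 FPKM (-1.47), and the carboxypeptidase Cpa3 at 15.3 and 5.5 FPKM (-1.33). Of the 12 listed mast cell genes 4 fell below the filter, and with no filter 6 were lower. Control skin had the same direction with smaller sizes, a median of -0.61 and 1 of 8 lower. Hdc, the enzyme that makes histamine, was 3.35 and 4.07 FPKM in the cKO.

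Myelin genes of peripheral nerve were lower as well. Of 13 tested genes of Schwann cells 3 were lower and none higher (median -0.73), and 12 of the 13 had ratios below 0. The junction protein gene Ncmap was 5.55 and 1.66 FPKM (log2 ratio -1.30) and Drp2 3.15 and 0.96 FPKM (-1.08). Mbp, which encodes myelin basic protein, was 19.0 and 9.38 FPKM, just short of the size counted at -0.94, and reached it after rescaling to equal totals. The median of this list in control skin was -0.16. Among 15 endothelial genes 1 was lower, the tight junction gene Cldn5, at 6.47 and 2.54 FPKM (median -0.34).

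**Figure D4:**
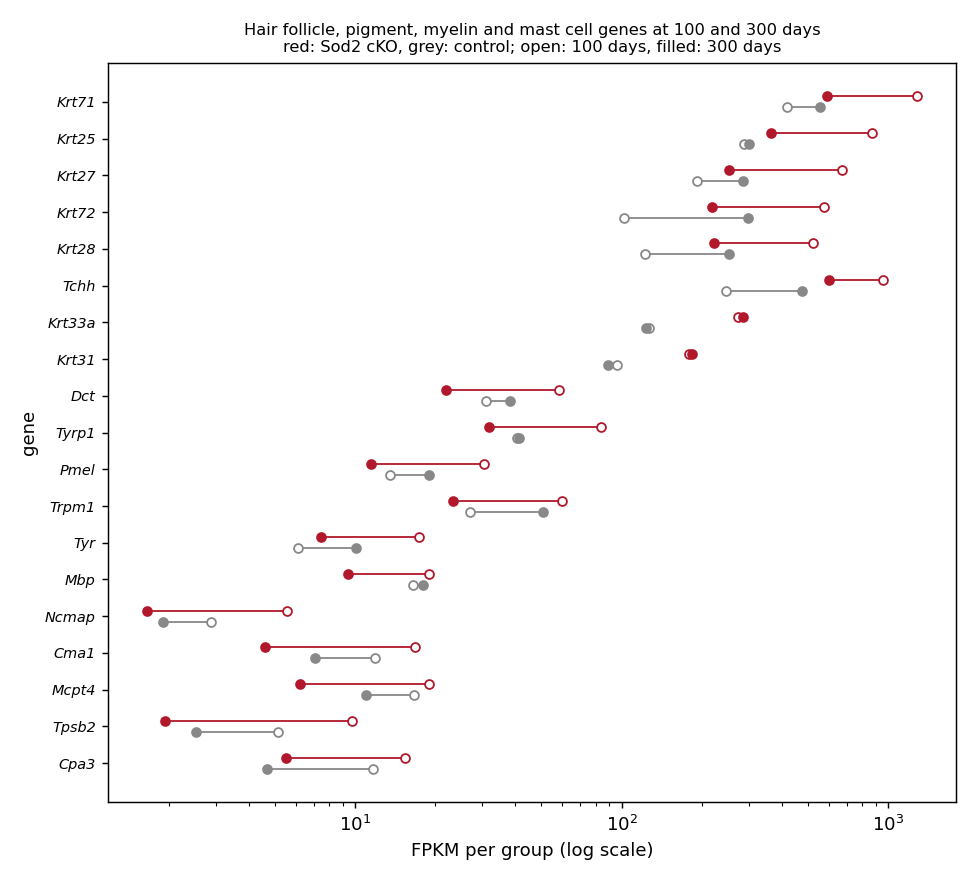
FPKM (log scale) of hair follicle, pigment, myelin and mast cell genes at 100 days (open) and 300 days (filled) in Sod2 cKO (red) and control skin (grey), 1 value per group. In the cKO the inner root sheath, pigment, myelin and mast cell genes lie further left at 300 days, and the hair shaft keratins Krt31 and Krt33a scarcely differ.

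Skeletal muscle genes, which in skin come from the striated muscle sheet beneath it, included both higher and lower members. Of 25 tested 6 were higher and 3 lower (median 0.72), and the summed level of the list was 15154 FPKM at 100 days and 22844 FPKM at 300 days in the cKO, against 23336 and 19266 FPKM in control skin. Ttn, which encodes titin, is listed at 0 in the 300-day controls, and without it the sums were 14671 and 21669 FPKM in the cKO and 22269 and 19266 FPKM in control skin. Myh4, the myosin of the fastest fibres, was 389 and 1216 FPKM (log2 ratio 1.64), the calcium release channel Ryr1 22.6 and 71.3 FPKM (1.61), the fast troponin C gene Tnnc2 962 and 2129 FPKM (1.15) and the light chain Myl1 468 and 1028 FPKM (1.14). The slow and cardiac light chain Myl2 was 28.7 and 1.54 FPKM (-3.55), the second lowest ratio among all genes with at least 5 FPKM and values above 0. Myl2 and Tnnc1 averaged under 1 FPKM over the groups other than their highest, the 100-day cKO group, and passed the filter through that group alone. In a division into isoforms made after the values were seen, and so a restatement of them, 3 of 12 fast isoforms were higher and 3 of 6 slow or heart isoforms were lower. Their medians were 0.76 and -0.97, and -0.16 and 0.17 in control skin. Myl2 and Tnnc1 are both among the 6 slow or heart isoforms. The count of lower genes and the median of these isoforms thus rest partly on genes admitted for a high 100-day cKO value. The annotated span of Myl2 overlaps that of Ccdc63, which had 0.851 and 3.43 FPKM and a ratio of opposite sign. Ankrd1, a stress protein of striated muscle, had one of the 15 lowest ratios (-2.37), from 7.17 to 0.581 FPKM. It too averaged under 1 FPKM over the groups other than the 100-day cKO group and passed the filter through that group alone.

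**Figure D5:**
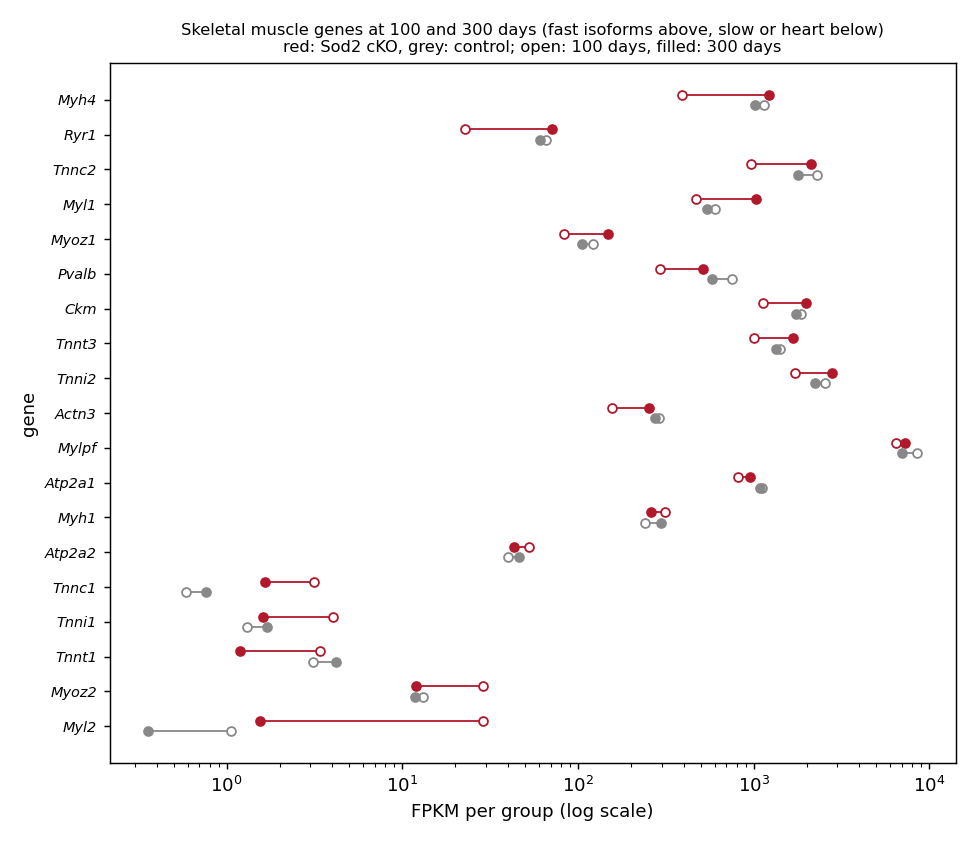
FPKM (log scale) of skeletal muscle genes at 100 days (open) and 300 days (filled) in Sod2 cKO (red) and control skin (grey), 1 value per group. Myh4 and Tnnc2 lie further right at 300 days in the cKO and close to the control values, while Myl2, Myoz2 and Tnni1 lie further left.

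A few glycolysis genes were higher beside those of muscle. Of 22 tested 3 were higher and none lower, and 19 had ratios above 0 (median 0.61). Pgam2 and Eno3, isoforms of muscle, were 57.9 and 127 FPKM (log2 ratio 1.12) and 344 and 713 FPKM (1.05), and Pfkl, an isoform found in many tissues, was 8.94 and 19.9 FPKM (1.07). Eno3 fell below the size counted after rescaling to equal totals. The glucose transporter Slc2a1, which is not specific to muscle, was 5.66 and 12 FPKM (0.96). How much of the glycolysis difference comes with the muscle genes was not tested. The glycolysis list had a median of -0.04 in control skin.

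Mitochondrial genes, of interest because SOD2 works there, gave a mixed picture. None of 41 nuclear-encoded respiratory chain subunits was counted (median 0.13), none of 16 enzymes of the tricarboxylic acid cycle (median 0.12), none of 15 enzymes of fatty acid oxidation (median 0.17) and none of 12 mitochondrial chaperones and proteases (median 0.13). Of 13 genes encoded in the mitochondrion 5 had a row of their own. Among these 5, 2 were higher and none lower (median 0.79), and the lowest ratio was -0.09. The 2 higher genes were mt-Nd5 at 1204 and 2605 FPKM (log2 ratio 1.11) and mt-Nd3 at 1.64 and 4.71 FPKM (1.11). Below the size counted were mt-Cytb at 1318 and 2283 FPKM (0.79) and mt-Co1 at 1715 and 2731 FPKM (0.67). In control skin mt-Nd5 was 1720 and 1872 FPKM, mt-Cytb 1990 and 2088 FPKM and mt-Co1 2703 and 2510 FPKM. The 100-day cKO value was the lowest of these ages for all 3. The mitochondrial ribosomal RNA mt-Rnr1, a target of ribosomal depletion, was 18402 FPKM at 100 days and 35622 FPKM at 300 days, and 26686 and 29674 FPKM in control skin. Depletion was done with 1 of 2 kits, and the kit of each sample is not given, so its part in this result was not tested. The uncoupling protein Ucp1, which lets mitochondria of brown fat make heat, was 2.49 and 11.0 FPKM (1.78), below the 22.6 and 29.2 FPKM of control skin.

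White fat genes hardly differed between the ages in the cKO. Of 22 tested adipocyte genes 1 was higher, the lipid droplet protein Cidea at 14 and 29.9 FPKM (log2 ratio 1.04, and 0.98 after rescaling to equal totals), and none was lower (median 0.16). The adipokines Adipoq and Lep were 75.5 and 68.7 FPKM and 3.73 and 4.37 FPKM. In control skin 2 of 22 were lower and 1 higher (median -0.49). The higher gene there was again Cidea, at 26.1 and 55.0 FPKM (1.05). None of 18 genes of fatty acid and sterol synthesis was counted (median -0.17), and Scd1 was 372 and 521 FPKM.

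The circadian clock turns over daily through activators (BMAL1, encoded by Arntl, and CLOCK) and repressors of the period and cryptochrome families. Of 19 tested clock genes 1 was lower and none higher, and 15 had ratios below 0 (median -0.43, against -0.09 in control skin). Per1 was 29.7 FPKM at 100 days and 12.5 FPKM at 300 days (log2 ratio -1.19), Per2 14.5 and 7.08 FPKM (-0.94) and Per3 8.57 and 4.72 FPKM (-0.74). The output factors Tef and Dbp were 90.5 and 59.0 FPKM (-0.61) and 14.1 and 8.79 FPKM (-0.63). Arntl and Clock had ratios of -0.10 and 0.06. The hour at which skin was taken is not given in the labels, and its part in this result was not tested. The clock activators bind the E-box CACGTG, and the upstream sequence of Per1 at the first of its RefSeq starts that holds it is shown with the E-box in capitals (GRCm38.p6, strand of the gene, 5′ to 3′).
Per1 (chr11:69098699-69098948, plus strand): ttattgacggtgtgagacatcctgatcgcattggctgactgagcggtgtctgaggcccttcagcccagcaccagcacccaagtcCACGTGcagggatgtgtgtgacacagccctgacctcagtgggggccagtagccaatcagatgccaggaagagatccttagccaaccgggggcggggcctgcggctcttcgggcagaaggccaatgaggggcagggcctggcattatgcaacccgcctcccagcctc
The E-box lies between 166 and 161 bases before that start. Of 16 tested clock genes with a promoter entry 5 held it (31.2%), against 6.86% of all genes with an entry and 6.02% of single windows. The D-box TTATGTAA was held by 1 of the 16 (6.25%), against 0.977% of genes and 0.819% of windows.

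Differentiated epidermis differed in a few members. Of 29 tested genes 4 were higher and none lower (median 0.04). Filaggrin (Flg), which bundles keratin in the outer layers, was 47.9 FPKM at 100 days and 295 FPKM at 300 days (log2 ratio 2.59). Flg has 8 rows in the table, and the values are those of its row with the highest mean. Krt1, the keratin of the spinous layer, was 104 and 299 FPKM (1.51), the caspase of cornification Casp14 9.34 and 26.1 FPKM (1.39) and the protease Klk8 12.2 and 31.3 FPKM (1.29). All 4 had ratios below 0 in control skin. In the 50-day controls Flg was 230 FPKM, Krt1 395 FPKM, Casp14 25.8 FPKM and Klk8 62.8 FPKM. In the 700-day controls they were 365, 1112, 31.7 and 50.4 FPKM, each above the 300-day cKO value. Loricrin (Lor) and involucrin (Ivl), structural proteins of the cornified envelope, were 46.5 and 53.2 FPKM and 61.9 and 63.8 FPKM. None of 13 basal keratinocyte genes was counted (median 0.10), with Krt14 at 466 and 882 FPKM (0.92) and its partner Krt5 at 525 and 578 FPKM (0.14). Of 15 genes of the epidermal lipid barrier 1 was higher, the lipase Lipn, at 4.18 and 11.0 FPKM (1.21).

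Among genes that no list held, the 15 highest ratios included Rhod, a small GTPase of endosome movement, at 8.92 and 109 FPKM (log2 ratio 3.47), with 6.85 to 28.1 FPKM in the control groups. Sbk2, a kinase whose annotated span overlaps that of Ssc5d, was 4.4 and 53.9 FPKM (3.35). Fam166a was 0.175 and 6.42 FPKM (2.66), and its span overlaps that of Tubb4b. The lowest ratio belonged to Cytl1, a secreted protein known from cartilage, at 40.6 FPKM at 100 days and 2.18 FPKM at 300 days (-3.71), with at most 1.54 FPKM in each control group. Galnt15, which starts O-linked sugar chains, was 41.6 and 9.55 FPKM (-2.02), Cyp26b1, which breaks down retinoic acid, 29.0 and 7.97 FPKM (-1.74), and Boll, a gene of germ cells, 8.52 and 0.612 FPKM (-2.56). Cxcl13, a chemokine that attracts B cells and a member of the chemokine list, was 17.7 and 2.91 FPKM (-2.26). In control skin it was 0.152 and 11.1 FPKM (3.39). Of 15 tested genes of that list 2 were lower and none higher in the cKO (median 0.02). In control skin 5 of the 15 were higher and none lower. For Cytl1, Galnt15 and Cxcl13 the 100-day cKO group was the highest of the 6, and for Cytl1 and Galnt15 the 300-day cKO value was nearer to the control values. Of the genes listed at 0 at one age and at 5 FPKM or more at the other, Stfa1 was described above, and Lcp2, an adaptor of T cells and myeloid cells, was 5.33 FPKM at 100 days and listed at 0 at 300 days. Boll and Lcp2 averaged under 1 FPKM over the groups other than the 100-day cKO group, and passed the filter through that group alone.

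Set beside the same ages in control skin, which come from other samples, some of the genes counted were shared. Control skin had 406 genes higher (3.35%) and 122 lower (1.01%) at 300 days. Of the 288 higher in the cKO 43 were also higher in control skin (14.9% of the cKO genes and 10.6% of the control genes), and of the 172 lower 5 were also lower (2.91% and 4.1%). In opposite directions, 12 of the 288 were lower in control skin (4.17%) and 14 of the 172 were higher (8.14%). Across 12111 genes the ratios of the 2 genotypes correlated at r = 0.03. Lymphocyte genes made up a visible part of the control difference. All 13 tested B and plasma cell genes were higher at 300 days in control skin (median 3.69), and in the cKO 1 was higher, Ighm at 5.4 and 13.2 FPKM, with a median of -0.24. T and NK cell genes had a median of 2.04 in control skin and 0.40 in the cKO, with the receptor gene Klrd1 higher at 0.497 and 2.49 FPKM. Of these lists 11 of 13 and 8 of 16 genes averaged under 1 FPKM over the groups other than their highest. Genes of simple epithelia and secretory glands had medians of -1.27 in control skin, with 10 of 16 lower, and -0.47 in the cKO, with 3 of 16 lower, led by Mucl1 at 7.27 and 0.607 FPKM. No test of the difference between genotypes was possible with 1 value per group.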

How the data were processed

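Whole-skin RNA libraries of 20 mouse samples in 6 groups were sequenced single-end over 75 cycles, per the labels' protocols. Groups were taken from source names. The authors deposited FPKM values, as a table of 46744 rows with a column for each group; a row carries 1 or more symbols. HISAT2, Cufflinks and Cuffdiff with mm10 are named in the submitters' processing notes, without versions. The annotation, how samples of a group were combined, and whether strand was used in counting are not given in the sources used here. No value per sample was used, so there is no error, and read depth is unknown. Nothing says whether samples of a group are separate mice.

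Rows with 1 symbol of a named gene were kept (19205 symbols, 98.4% found in GENCODE release M21), and of several rows the one with the highest mean was used (52 symbols). Predicted genes, clone names, pseudogenes and small RNAs were left out, as were 1057 rows with several symbols. Genes averaging at least 1 FPKM over the 6 groups entered (12111). The log2 ratio of (FPKM + 1) understates changes of low genes. An exact 0 can be a failed estimate, since Malat1, abundant in most cells, is listed at 0 in the 50-day and 700-day controls; for these genes no fold is given.

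Members, the 55 gene lists and alternatives were chosen with earlier results of these data known, so lists are described by counts and medians. The interferon and AP-1 motifs, the fibre type division and some named genes were chosen after values were seen. Otherwise, genes named were Sod2, Junb, Igf1, the 15 highest and 15 lowest ratios among genes reaching 5 FPKM at either age, genes listed at 0 at 1 age, and per list up to 6 counted members and the 3 highest in level. Not every gene the rule names is reported here. Gene positions are 1-based, from GENCODE M21 (GRCm38, the mm10 assembly), and promoters from RefSeq (GRCm38.p6). The deposited FPKM were recounted under 10 alternatives. The counting was tested on simulated data. Tables were computed with pandas 2.3.3 and numpy 2.4.6 in Python 3.11.15, correlations with scipy 1.17.1, and plots with matplotlib 3.10.9.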

Additional observations from a re-analysis of the deposited data

How the results depend on the processing

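With a pseudocount of 0.1 the counts were 472 genes higher and 362 lower at 300 days, and with a mean of at least 5 FPKM they were 176 higher and 84 lower. Under the other 8 alternatives both counts stayed within 1.5 times the reported 288 and 172. Rescaling to equal totals moved the median of all genes by -0.07 and gave 282 higher and 246 lower. Of 119 counted genes among the 257 named, 9 dropped below the size counted in some rescaling, and none changed sign in any alternative. The list medians of 47 of 55 lists kept their sign under every alternative. The other 8 had reported medians of at most 0.24 in size, among them epidermal differentiation, fibroblast markers, senescence-related genes and B and plasma cells. With no filter the median of the neutrophil list was 0.12 and that of the epidermal stress list 0.03; the filter removes their unexpressed members. The stefin median, reported as 5.12, was 1.20 with no filter and 2.87 without genes listed at 0. No paired analysis was possible because each group has 1 deposited value, and for the same reason no sample could be left out in turn. With depth unknown, differences of genes near 1 FPKM cannot be told from counting error.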

Other observations

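Some genes share a row of the deposited table with a small or predicted gene and entered no count above. Col3a1, the second main fibrillar collagen of skin, shares its row with a clone-based gene, and that row was 881 FPKM at 100 days and 2608 FPKM at 300 days in cKO skin (log2 ratio 1.56), against 1842 and 1736 FPKM in control skin. The row of Ampd3, a deaminase of adenine nucleotides, was 7.78 and 31.9 FPKM in the cKO (1.91) and 28.2 FPKM in the 700-day controls.

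Txnip, which inhibits thioredoxin and glucose uptake, was 874 FPKM at 100 days and 369 FPKM at 300 days in the cKO (log2 ratio -1.24), the lowest of the 6 groups, with 662 to 908 FPKM in the others. Skint1 and Skint7, genes of the thymus and epidermis that shape epidermal T cells, were 15.5 and 36.9 FPKM (1.20) and 5.55 and 14.7 FPKM (1.26), while in control skin their ratios were 0.04 and 0.14. Lepr, the leptin receptor, was 20.1 and 5.8 FPKM (-1.63), and Apod, a lipid carrier made by fibroblasts and nerve cells, was 102 and 30.0 FPKM (-1.74). These genes were chosen after their values were seen.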
